A study of Mus musculus with 12 samples.

Results

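Transcripts of 7 forebrain neuropeptide precursors outside the opioid family were followed in the adult mouse nucleus accumbens: Cck, Nts, Cartpt, Crh, Trh, Adcyap1 and Nmb. Each was taken from the row of the value table whose platform annotation gave that gene symbol alone. All 7 had 1 such row, out of 18820 genes with a row of this kind. The 6 poly(I:C) arrays came from C57BL/6N offspring whose mothers had been injected with poly(I:C), a double-stranded RNA made to imitate a virus, at 5 mg/kg into a vein on gestation day 17. The 6 control arrays came from C57BL/6N offspring of mothers given saline on the same day. Cognition and behaviour were tested in both groups, and brains were taken at an age of 12 weeks, with core and shell of the accumbens pooled. The labels name each array as a biological replicate and give neither sex nor litter, so litter mates would count as independent animals in every test below.

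Neuropeptides are made as longer precursor proteins, cut by prohormone convertases inside dense-core vesicles and released to act on G-protein-coupled receptors. In the ventral striatum they come from the medium spiny neurons, from interneurons, and from the axons of other regions, whose cell bodies, and with them most of the precursor mRNA, lie outside the accumbens. Cck is expressed strongly in cortical pyramidal neurons, whereas Cartpt and Nts are expressed in neurons of the accumbens itself. A change in a bulk tissue sample can come from fewer cells of a type or from less RNA per cell. It can also come from a different share of neighbouring tissue, and these cannot be told apart here.

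Values are log2 expression, and a difference is the poly(I:C) mean minus the control mean. Levels of different genes are not compared, since each row has its own probes. Pairwise correlations of the 12 arrays over all rows ran from 0.991 to 0.997. The array mean of 9 marker genes of medium spiny neurons, the main neurons of the accumbens, ran from 8.82 to 9.22 in poly(I:C) offspring and from 8.60 to 9.16 in controls. Markers of choroid plexus, a neighbouring tissue, varied more in controls but less in poly(I:C) offspring (SD 0.12 against 0.15 over 6 arrays). The mean of 8 choroid plexus genes ran from 4.49 to 4.77 in poly(I:C) offspring and from 4.67 to 7.29 in controls, with control 4 and control 6 highest at 6.38 and 7.29.

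The promoters of 3 precursors are shown because Cck and Trh carried the opposite patterns described below and Cartpt was the member whose poly(I:C) arrays most often lay above the control range. The stretches are the 150 bases directly before the annotated start of transcription, in the gene's own direction, from RefSeq on GRCm38.p6. Capitals mark TGACG, the core of the cAMP response element, or CGTCA, the same core read on the opposite strand. Cck lies on the minus strand with its stretch at chr9:121495695-121495844, Trh on the minus strand at chr6:92244651-92244800, and Cartpt on the minus strand at chr13:99900684-99900833.
Cck: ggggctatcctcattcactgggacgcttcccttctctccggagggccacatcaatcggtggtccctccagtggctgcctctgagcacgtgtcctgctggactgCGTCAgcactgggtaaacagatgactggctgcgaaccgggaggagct
Trh: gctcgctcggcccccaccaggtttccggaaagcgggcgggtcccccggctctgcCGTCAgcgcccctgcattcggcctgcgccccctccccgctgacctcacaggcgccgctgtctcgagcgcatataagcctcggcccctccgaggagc
Cartpt: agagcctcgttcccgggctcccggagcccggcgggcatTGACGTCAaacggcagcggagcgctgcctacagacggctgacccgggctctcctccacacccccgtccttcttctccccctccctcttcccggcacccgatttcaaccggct
Cartpt held the full palindrome TGACGTCA, in which the 2 strands' cores overlap, starting 112 bases before the start. The full palindrome was present in 1.79% of the 32851 promoter windows of 250 bases before to 50 bases after a start. The core, present in 20.8% of those windows when those with the full palindrome are counted too, began 47 bases before the start of Cck and 96 bases before that of Trh. It was also found in the windows of Nts and Adcyap1 and not in that of Nmb. These matches describe the letters of the windows only. Crh had no entry in the table used.

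Of the 7 precursors, 0 passed the adjusted threshold between poly(I:C) and control offspring (limma, Benjamini-Hochberg over 21218 rows, threshold 0.05), where 0.0613% of all rows did, 0.0283% with higher and 0.033% with lower values. Unadjusted limma p-values under 0.05 were reached by 4 members, namely Cck, Nts and Cartpt with higher values and Trh with a lower one, against 14.4% of all rows in either direction (7.83% higher and 6.57% lower). The groups overlapped for all 7 members, whereas 1.13% of all rows had groups that did not overlap. The median difference of the members was 0.06, with 4 higher and 3 lower in value, against a median of 0.00 over all rows. Member differences ran from -0.38 for Trh to 0.72 for Cck.

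**Figure D1:**
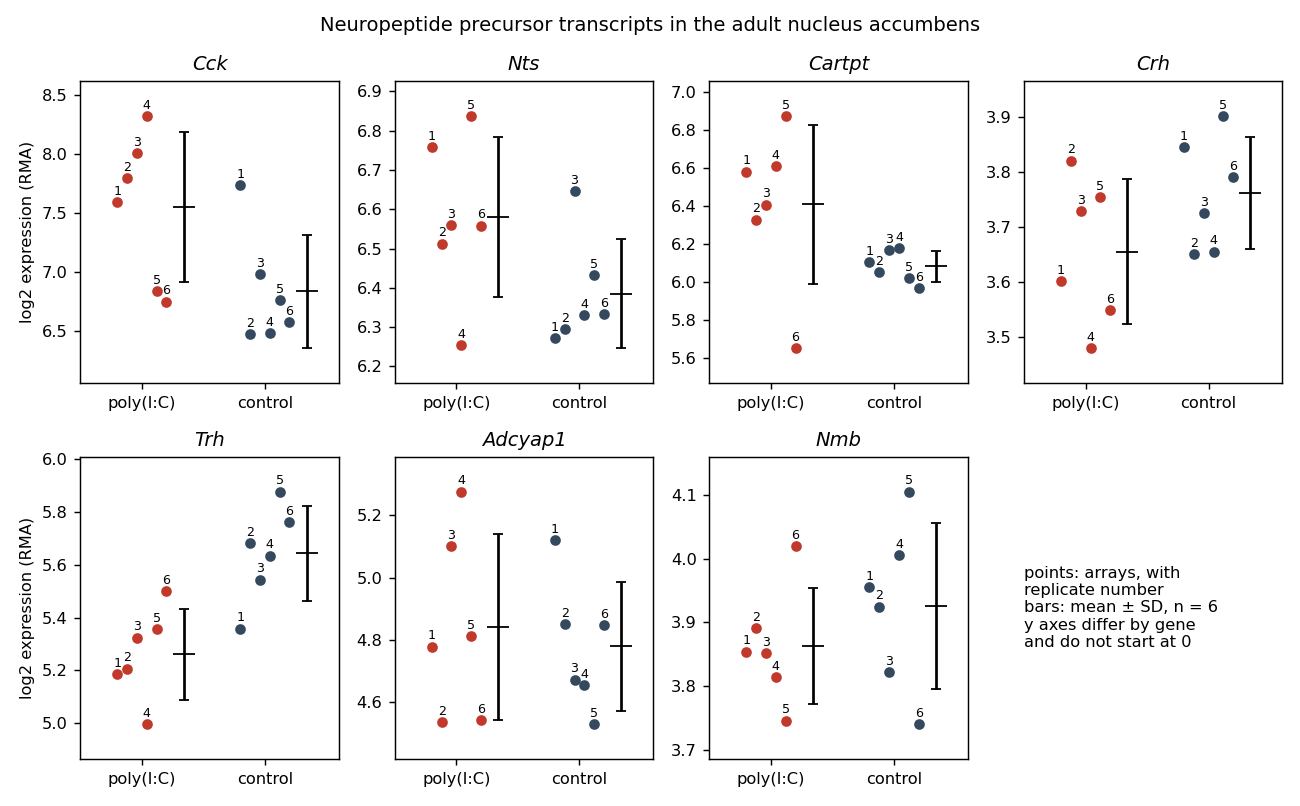
Log2 expression (y axis, RMA values, a separate axis for each gene) of the 7 precursors in each poly(I:C) array (left, red) and control array (right, dark), numbered by replicate, with mean ± SD over 6 arrays as bars. Cck is spread widely in both groups, 5 of the 6 Trh points of poly(I:C) offspring lie below the lowest control, and 5 of the 6 Cartpt points of poly(I:C) offspring lie above the highest control.

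Cck encodes the precursor of cholecystokinin, a peptide of cortical pyramidal cells and of a class of GABA interneurons. Its values were 7.59, 7.79, 8.01, 8.32, 6.84 and 6.75 in poly(I:C) arrays 1 to 6, and 7.73, 6.47, 6.98, 6.48, 6.76 and 6.57 in control arrays 1 to 6. Poly(I:C) 1 to 4 and control 1 were high, poly(I:C) 5 and 6 lay among the other controls, and a gap from 6.98 to 7.59 separated the 5 high arrays from the 7 low ones. The means were 7.55 ± 0.63 in poly(I:C) offspring and 6.83 ± 0.48 in controls (SD, n = 6 each), a difference of 0.72 (95% interval 0.12 to 1.31, limma adjusted p = 0.267) or 1.64-fold. The spread of Cck within the groups was larger than that of 99.8% of all tested rows.

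Trh encodes the precursor of thyrotropin-releasing hormone, a tripeptide known from the hypothalamus that is also made by neurons elsewhere in the forebrain. Its values were 5.19, 5.21, 5.32, 5.00, 5.36 and 5.50 in poly(I:C) arrays 1 to 6, and 5.36, 5.68, 5.54, 5.64, 5.88 and 5.76 in control arrays 1 to 6. All 6 poly(I:C) arrays were below the control median, and the overlap came from poly(I:C) 6 and control 1. The means were 5.26 ± 0.17 in poly(I:C) offspring and 5.64 ± 0.18 in controls (SD, n = 6 each), a difference of -0.38 with a 95% interval of -0.57 to -0.19 (limma adjusted p = 0.104). Trh had the smallest p of the 7 members. Without control 1 the difference was -0.44 (limma adjusted p = 0.0498), and with array weights it was -0.45 (limma adjusted p = 0.0356). Over all 21 alternative fits that kept Trh, its adjusted limma p ran from 0.0356 to 0.400.

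Cartpt encodes the precursor of the CART peptides, which are named for a transcript regulated by cocaine and amphetamine in rat striatum. Its values were 6.58, 6.33, 6.41, 6.61, 6.88 and 5.65 in poly(I:C) arrays 1 to 6, and 6.11, 6.05, 6.17, 6.18, 6.02 and 5.97 in control arrays 1 to 6. The controls lay close together, 5 poly(I:C) arrays lay above all of them, and poly(I:C) 6 lay below all of them. The means were 6.41 ± 0.42 in poly(I:C) offspring and 6.08 ± 0.08 in controls (SD, n = 6 each), a difference of 0.33 (95% interval 0.01 to 0.65, limma adjusted p = 0.338). Without poly(I:C) 6 the difference was 0.48 (limma adjusted p = 0.0411), and over the 22 alternative fits the adjusted limma p ran from 0.0411 to 0.698.

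Nts encodes the precursor of neurotensin and neuromedin N, peptides that modulate dopamine transmission. Its values were 6.76, 6.51, 6.56, 6.26, 6.84 and 6.56 in poly(I:C) arrays 1 to 6, and 6.27, 6.30, 6.65, 6.33, 6.43 and 6.33 in control arrays 1 to 6. Poly(I:C) 1 and 5 lay above the highest control, control 3, and poly(I:C) 4 lay below the lowest. The difference was 0.19 (95% interval 0.00 to 0.39, limma adjusted p = 0.340). It stayed on the same side of zero in all 22 alternative fits, from 0.14 to 0.26, with an adjusted limma p from 0.168 to 0.705.

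Adcyap1, Crh and Nmb gave smaller differences. Adcyap1 encodes the precursor of PACAP, a peptide that raises cAMP in its target cells. It ran from 4.54 to 5.28 in poly(I:C) arrays, with a median of 4.80, and from 4.53 to 5.12 in control arrays, with a median of 4.76, so the ranges nearly coincided. The difference was 0.06 (95% interval from -0.21 to 0.34, limma adjusted p = 0.874), and its sign turned without poly(I:C) 4, at -0.03, and with the cortical marker mean described below as a covariate, at -0.12. Crh, the precursor of corticotropin-releasing hormone, the hypothalamic starter of the stress axis that is also made by forebrain interneurons, ran from 3.48 to 3.82 in poly(I:C) arrays (median 3.67) and from 3.65 to 3.90 in control arrays (median 3.76). The difference was -0.11 (95% interval -0.24 to 0.03, limma adjusted p = 0.463). Nmb, the precursor of neuromedin B, a bombesin-like peptide, ran from 3.75 to 4.02 in poly(I:C) arrays (median 3.85) and from 3.74 to 4.10 in control arrays (median 3.94), and differed by -0.06 (95% interval -0.19 to 0.07, limma adjusted p = 0.675). The rows of Crh and Nmb had means at percentiles 18.7 and 22.6 of all tested rows, where arrays resolve differences poorly, and the intervals above are those of the measured log2 values.

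The level of Cck moved with markers of cortical glutamatergic neurons from array to array. The list held 9 genes, of which 8 were measured. Slc17a7, which loads glutamate into the synaptic vesicles of cortical neurons, ran from 7.68 to 9.50 in poly(I:C) arrays and from 5.23 to 9.41 in control arrays, and control 1 was the highest control for Slc17a7 as for Cck. Neurod6, a transcription factor of cortical pyramidal neurons, ran from 3.17 to 4.73 in poly(I:C) arrays and from 2.93 to 3.78 in control arrays. Its row was dim, with a mean at percentile 13.9 of all tested rows. The sum of the log2 values of the 8 genes ran from 46.7 to 53.2 in poly(I:C) arrays and from 42.6 to 51.8 in control arrays. Of the 8 genes, 7 were higher in value in poly(I:C) offspring, against 10795 of the 21218 rows tested, and 0 passed the adjusted limma threshold. An unadjusted limma p under 0.05 with higher values was reached by 5 of the 8, against 7.83% of all rows.

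Across the 12 arrays the correlation of Cck with the mean of the cortical list was Pearson r = 0.953 (permutation p = 1e-05, the smallest that 100000 resamples can give, adjusted p = 0.00042 over 42 relations of 7 members with 6 marker lists) and Spearman rho = 0.930 (permutation p = 6e-05, adjusted p = 0.0014). Within the groups r was 0.986 in the 6 poly(I:C) arrays (exact permutation p = 0.00556, adjusted p = 0.200) and 0.949 in the 6 control arrays (exact permutation p = 0.0125, adjusted p = 0.504). Neither passed after adjustment. With 6 arrays the smallest exact permutation p is 0.00278, so 1 relation alone could not pass the adjustment over 42. Adjusted p-values within the groups therefore cannot decide whether a single relation holds. Without the 2 arrays farthest from the median of the cortical mean, control 6 and poly(I:C) 4, r was 0.962. With the cortical mean entered as a covariate in the limma fit, the Cck difference was 0.03 (adjusted p = 0.968), against 0.72 without it. Cck also ran against the choroid plexus and oligodendrocyte means by rank but not by Pearson r after adjustment. With the choroid plexus mean rho was -0.916 (permutation p = 7e-05, adjusted p = 0.0014) and r was -0.607 (permutation p = 0.0255, adjusted p = 0.214), or -0.800 without control 4 and control 6. Within the groups that r was -0.878 in poly(I:C) arrays (exact permutation p = 0.0208) and -0.580 in control arrays (exact permutation p = 0.239). With the oligodendrocyte mean rho was -0.776 (permutation p = 0.00445, adjusted p = 0.0311) and r was -0.706 (permutation p = 0.0108, adjusted p = 0.113). Here r was -0.314 within the poly(I:C) arrays (exact permutation p = 0.568) and -0.748 within the control arrays (exact permutation p = 0.0681). The groups did not overlap in the oligodendrocyte mean, so its relations over the 12 arrays include that difference. The cortical mean itself differed by 0.49 between the groups, so a fit with it as a covariate cannot separate tissue from exposure. The oligodendrocyte mean was not entered as a covariate. The part of any of these tissues in the Cck difference was not tested.

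Trh ran the opposite way. Its r with the cortical mean was -0.883 (permutation p = 0.00031, adjusted p = 0.00651) and its rho was -0.825 (permutation p = 0.00160, adjusted p = 0.0134). Within the groups r was -0.830 in poly(I:C) arrays (exact permutation p = 0.0403, adjusted p = 0.211) and -0.847 in control arrays (exact permutation p = 0.0292, adjusted p = 0.504), and without control 6 and poly(I:C) 4 it was -0.821. With the cortical mean as a covariate the Trh difference was -0.19 (limma adjusted p = 0.375). Trh also followed the mean of 9 oligodendrocyte genes, with r = 0.832 (permutation p = 0.00056, adjusted p = 0.00784) and rho = 0.909 (permutation p = 0.0001, adjusted p = 0.0014), and r was 0.866 without control 2 and control 6. Within the groups r was 0.378 in poly(I:C) arrays (exact permutation p = 0.458, adjusted p = 0.740) and 0.718 in control arrays (exact permutation p = 0.100, adjusted p = 0.504). With the choroid plexus mean Trh had rho = 0.853 (permutation p = 0.00083, adjusted p = 0.00871) and r = 0.579 (permutation p = 0.0501, adjusted p = 0.351). For that mean r was 0.579 within the poly(I:C) arrays (exact permutation p = 0.228) and 0.350 within the control arrays (exact permutation p = 0.487). The oligodendrocyte mean itself ran from 7.87 to 8.05 in poly(I:C) arrays and from 8.06 to 8.58 in control arrays. The groups did not overlap in that mean, and the part of oligodendrocyte RNA in the Trh difference was not tested.

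**Figure D2:**
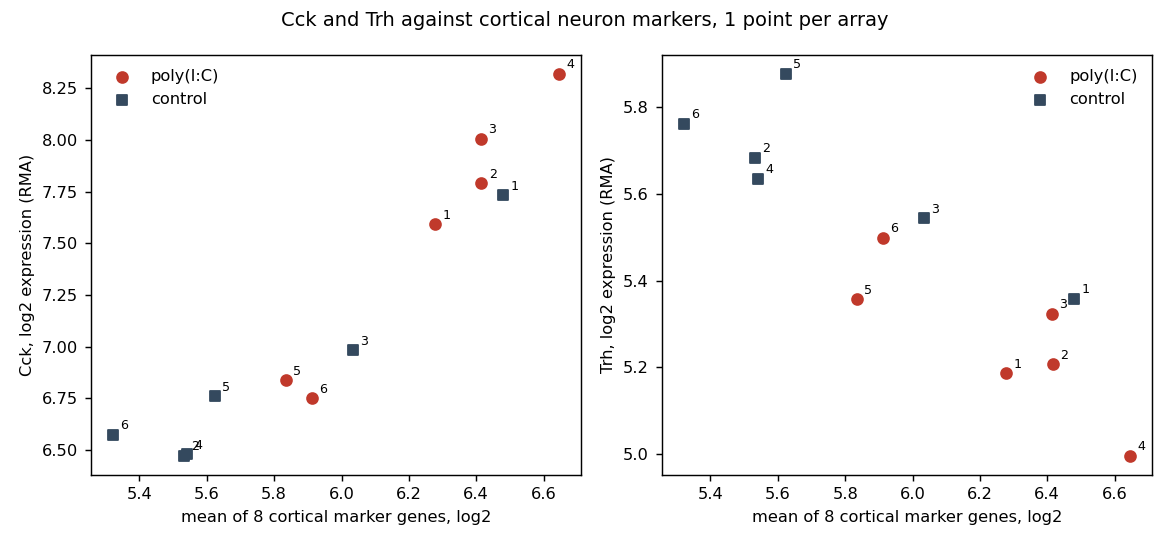
Log2 expression of Cck (left) and Trh (right) on the y axis against the array mean of 8 cortical glutamatergic marker genes on the x axis, 1 point for each of the 6 poly(I:C) arrays (red circles) and 6 control arrays (dark squares), numbered by replicate. Cck rises and Trh falls along the cortical mean in both groups, with r of 0.953 and -0.883, and control 1 sits with poly(I:C) 1 to 4, apart from the other controls, in both panels.

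Of the 21 pairs of members, 1 passed the adjusted permutation threshold over the 12 arrays. Cck and Trh were opposed, with r = -0.854 (permutation p = 0.00036, adjusted p = 0.00756) and rho = -0.811 (permutation p = 0.00197, adjusted p = 0.0414). Within the groups r was -0.825 in poly(I:C) arrays (exact permutation p = 0.0403, adjusted p = 0.423) and -0.763 in control arrays (exact permutation p = 0.0806, adjusted p = 0.997), and without poly(I:C) 3 and 4 it was -0.803. Without poly(I:C) 4 alone r was -0.791 and the adjusted permutation p was 0.113. The next pairs were Cartpt with Trh at r = -0.644 and Cck with Adcyap1 at r = 0.608, with adjusted permutation p of 0.244 each. For Cck with Adcyap1, r was 0.197 without poly(I:C) 3 and 4, 0.676 within the poly(I:C) arrays (exact permutation p = 0.147) and 0.620 within the control arrays (exact permutation p = 0.199). Cartpt and Nmb, a dim row, had r = -0.582 over the 12 arrays (permutation p = 0.0464, adjusted p = 0.244) and -0.327 without poly(I:C) 5 and 6. Their r was -0.983 within the poly(I:C) arrays (exact permutation p = 0.00278, adjusted p = 0.0583 over the 21 pairs) and 0.171 within the control arrays. That permutation p is the smallest that 6 arrays can give, so 1 pair alone could not pass the adjustment. The difference in r between the groups was not tested. Nts had correlations between -0.347 and 0.444 with the other members.

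**Figure D3:**
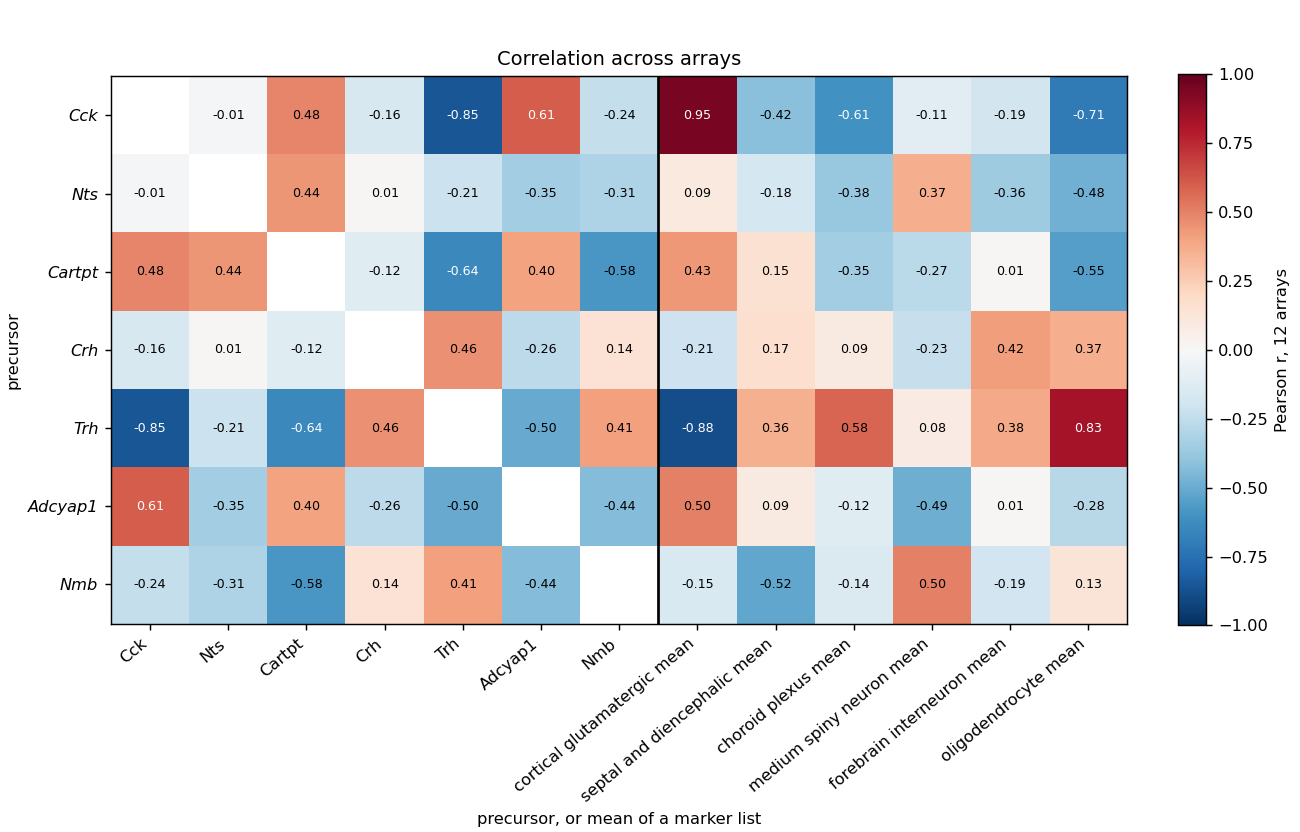
Pearson r over 12 arrays of each of the 7 precursors (rows) with the other precursors (left of the line) and with the array means of 6 marker lists (right of the line), from blue (-1) to red (1). The strongest cells are Cck with the cortical mean at 0.95, Trh with the cortical mean at -0.88, Cck with Trh at -0.85 and Trh with the oligodendrocyte mean at 0.83.

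Genes most like each precursor were found from deviations from the group means over the 12 arrays, so that the group difference played no part. For Cck these were Chrm3 with r = 0.972, which encodes a muscarinic acetylcholine receptor, Rims1 with 0.963, an active-zone protein of synaptic vesicle release, and Ppfia3 with 0.960, a liprin of presynaptic scaffolds. For Trh they were the orphan receptor gene Gpr101 with 0.942, the protocadherin gene Pcdh11x with 0.891 and the ribosomal protein gene Rps6 with 0.882. For Cartpt they were Isca2 with 0.927, Acrbp with 0.925 and Fam161b with 0.904. Nts was most like Srgn with 0.852, the serotonin receptor gene Htr4 with 0.839 and Rbm33 with 0.817. Adcyap1 was most like the sulfotransferase gene Chst8 with 0.920, Zfp367 with 0.859 and Msmo1, a gene of cholesterol synthesis, with 0.845. Crh was most like Osbpl11 with 0.848, Mmgt1 with 0.808 and the GABA-A receptor subunit gene Gabrb2 with 0.799. Nmb was most like the microglial gene Tmem119 with 0.853, Ccnj with 0.849 and the histone methyltransferase gene Nsd2 with 0.835. These are the highest values among 9089 or 9090 genes searched for each member and are given as descriptions.

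Receptors and binding proteins of these peptides were taken from a list of 16 genes, all measured. In either direction 0 passed the adjusted limma threshold, while 4 had higher and 2 lower values at an unadjusted limma p under 0.05, where 7.83% and 6.57% of all rows did. The median difference was 0.04 against 0.00 over all rows. Nmbr, the neuromedin B receptor gene, was at 7.12, 6.92, 6.65, 7.60, 5.82 and 5.41 in poly(I:C) arrays 1 to 6, and at 6.04, 5.83, 5.67, 5.70, 5.52 and 5.79 in control arrays 1 to 6. Poly(I:C) 1 to 4, which were also high in Cck, were above all controls, poly(I:C) 5 was among the controls and poly(I:C) 6 was below them. Control 1, the other array with high Cck, was the highest control for Nmbr, at 6.04, but lay below poly(I:C) 1 to 4. The Nmbr difference was 0.83 (95% interval 0.20 to 1.46, limma adjusted p = 0.231), and a further row of the gene, at means of 4.17 in poly(I:C) offspring and 4.13 in controls, gave 0.03. Cckbr, the main cholecystokinin receptor of the brain, was at 6.76 ± 0.31 in poly(I:C) offspring and 6.30 ± 0.36 in controls (SD, n = 6 each), a difference of 0.46 (limma adjusted p = 0.243). With the cortical mean as a covariate the differences were 0.34 for Nmbr and 0.02 for Cckbr (limma adjusted p = 0.736 and 0.926).

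Vipr2, a receptor gene for PACAP and VIP, was the 1 receptor gene of 16 whose groups did not overlap, against 1.13% of all rows. It was at 3.56 ± 0.05 in poly(I:C) offspring and 3.70 ± 0.11 in controls (SD, n = 6 each), a difference of -0.14 at a dim row (limma adjusted p = 0.227). Grpr, the receptor of the related gastrin-releasing peptide, differed by -0.18 (limma adjusted p = 0.312), and Crhbp, which encodes the protein that binds corticotropin-releasing hormone, by 0.31 (limma adjusted p = 0.322). The Crhbp difference was -0.01 with the cortical mean as a covariate. Trhr, a receptor gene for thyrotropin-releasing hormone, was at 5.32 ± 0.27 in poly(I:C) offspring and 5.07 ± 0.18 in controls (SD, n = 6 each), higher by 0.25 in value (limma adjusted p = 0.343, 95% interval 0.00 to 0.49). Differences of the other 10 receptor genes lay between -0.16 and 0.12, with adjusted limma p from 0.417 to 0.973. Among them, the PACAP receptor gene Adcyap1r1 and the corticotropin-releasing hormone receptor gene Crhr1 differed by 0.01 and 0.02, with 95% intervals of -0.16 to 0.19 and -0.13 to 0.16.

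**Figure D4:**
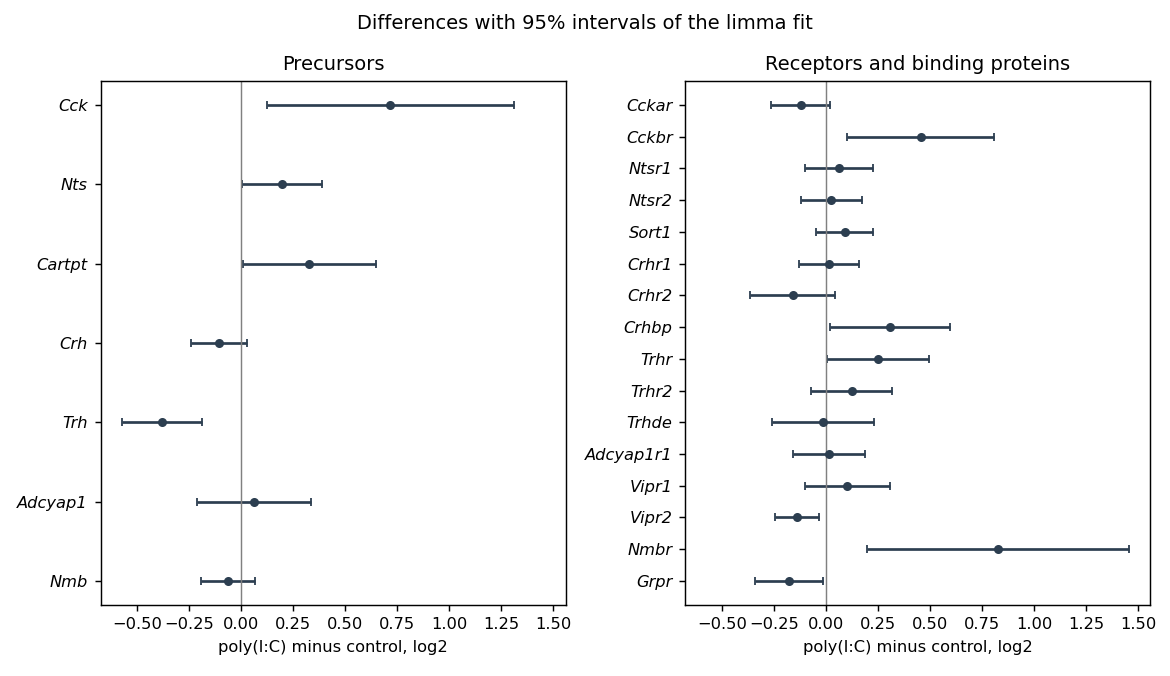
Poly(I:C) minus control differences on the log2 scale (x axis) with 95% intervals of the limma fit over 6 arrays per group, for the 7 precursors (left panel) and the 16 receptor and binding protein genes (right panel). The intervals of Cck, Nts, Cartpt and Trh leave out 0 before adjustment, and Nmbr at 0.83 has the widest interval of the receptors.

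Genes that process and store peptides came from a list of 14, of which 13 were measured. Of these, 0 passed the adjusted limma threshold and 1 had an unadjusted limma p under 0.05, where 14.4% of all rows did. The median difference was -0.04, and the median size of the differences was 0.043 against 0.048 over all rows. That gene was Scg5, which encodes the 7B2 chaperone of prohormone convertase PC2, at 8.29 ± 0.07 in poly(I:C) offspring and 8.44 ± 0.06 in controls (SD, n = 6 each), a difference of -0.15 (95% interval -0.24 to -0.07, limma adjusted p = 0.143). Cadps, a dense-core vesicle priming factor, differed by 0.14, and the amidating enzyme gene Pam and the carboxypeptidase gene Cpe by -0.06 and -0.04. The convertase gene Pcsk1 differed by 0.00, with a 95% interval of -0.24 to 0.24.

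Of 11 other neuropeptide precursors measured on the same arrays, Gal, the precursor of galanin, fell, with a difference of -1.23 (limma adjusted p = 0.0433). That call held in 8 of 22 alternative fits, with the difference between -1.39 and -0.93 and the adjusted limma p between 0.00234 and 0.289. It was lost, for example, with the replicate block (limma adjusted p = 0.0875) and with the cortical mean as a covariate (limma adjusted p = 0.285). Tac2 stood at -1.22 (limma adjusted p = 0.0519). Over its 22 alternative fits the Tac2 difference lay between -1.42 and -0.94, with an adjusted limma p between 0.0020 and 0.289. Pdyn stood at 0.32 and Tac1 at 0.24, neither of them past the adjusted threshold. Penk was at -0.02 (95% interval -0.13 to 0.10), Sst at 0.04 (-0.12 to 0.20) and Npy at -0.06 (-0.27 to 0.15). The largest difference among the 7 precursors, that of Cck, was smaller in size than those of Gal and Tac2.

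**Figure D5:**
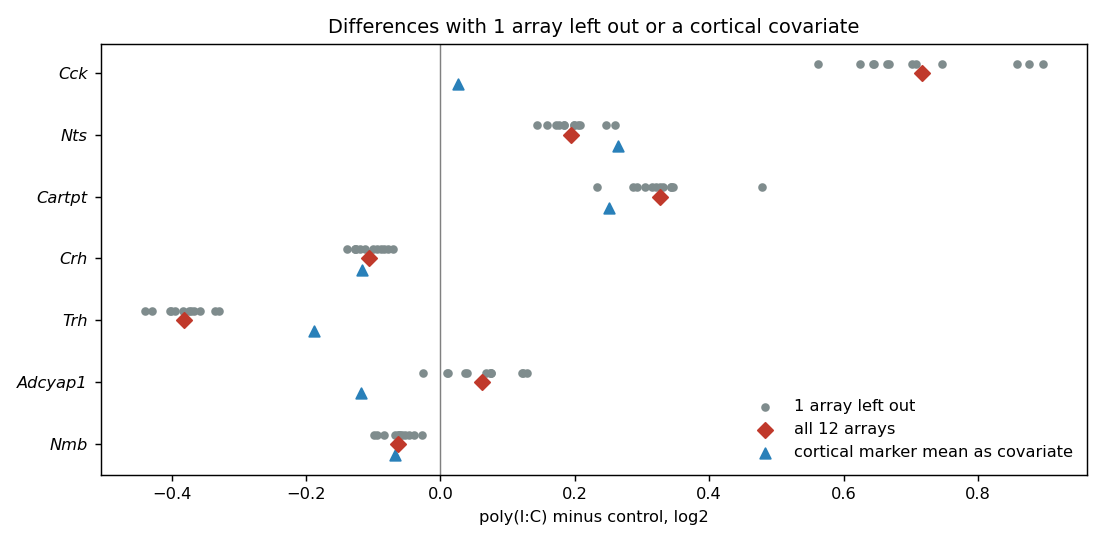
Poly(I:C) minus control difference on the log2 scale (x axis) of each precursor (y axis) with all 12 arrays (red diamonds), with each array left out in turn (grey points) and with the cortical marker mean as a covariate (blue triangles). The Cck triangle lies at 0.03, far from its diamond at 0.72, while the Nts triangle lies at 0.26 beside a diamond at 0.19.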

How the data were processed

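Expression was measured on Affymetrix Mouse Gene 1.1 ST array strips from 250 ng of total RNA per array. The authors deposited 1 table of log2 values with 35556 rows and 12 arrays, made with RMA and Partek 6.6 per the submitters' processing notes. For the RMA settings and the build, nothing is stated in the labels. RMA aligns the arrays at the probe level, which can hide a shift of most transcripts together. Medians of the deposited arrays ran from 4.78 to 4.85. Rows were named from the platform annotation, and the 21218 rows with 1 gene symbol were tested; where a gene had several rows, the row with the highest mean was used. Some genes listed for comparison are not analysed here.

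Groups came from the sample titles. Each row was fitted with limma 3.58.1 in R 4.3.3 (lmFit and eBayes, exposure group as the only term, two-sided, Benjamini-Hochberg over all tested rows, threshold 0.05). Correlations used two-sided permutation tests with 100000 resamples over 12 arrays and all orderings within 6 arrays, adjusted over 21 pairs of members and over 42 relations with marker lists. The 12 arrays were reordered across the groups, so correlations over them include differences between the groups. Methods were tested on simulated data. The number of arrays sets the precision; there is no read depth.

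The members, the gene lists, the tests and the alternatives were chosen with earlier results of these data known. Named are all members, the 3 genes most like each by correlation of deviations from the group means among genes at or above the median level, up to 4 genes of each list by smallest p, Slc17a7, Neurod6 and Ttr, and any gene of the list of other precursors. Adcyap1r1, Crhr1, Crhbp, Trhr and Pcsk1 were named after their values were seen. Same-numbered arrays of the groups had deviations that correlated between -0.201 and 0.269, so the numbers were not taken to pair the animals.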

Additional observations from a re-analysis of the deposited data

Results flagged for a closer look

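In groups of 6 arrays, a lowest or highest array was looked for whose gap to its nearest neighbour, as a share of the group's range, was above Dixon's 95% critical value for 6 samples. Chance alone marks about 5% of groups in this way, and 56 groups of values were examined. No member was marked. The 5 values that stood apart came from 3 arrays, namely poly(I:C) 6 for Pdyn at 7.23 (nearest 6.84) and for Ttr at 6.80 (nearest 5.51), control 6 for Vipr2 at 3.92 (nearest 3.68) and for Tac1 at 8.73 (nearest 9.34), and control 4 for Cadps at 8.24 (nearest 8.66). Vipr2 is the receptor gene whose groups did not overlap, and without control 6 its difference was -0.10. Poly(I:C) 6 was also the array with the lowest Cartpt, at 5.65.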

How the results depend on the processing

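The 22 alternative fits left 0 receptor and 0 peptide processing genes past the adjusted threshold, as in the fit with all arrays. Among the members, array weights brought 1 lower (Trh, -0.45) past it. With 1 array left out, 0 to 1 members were higher and 0 to 1 lower past it, with differences from -0.44 to -0.33 for Trh, 0.23 to 0.48 for Cartpt and -0.03 to 0.13 for Adcyap1. The sign of Adcyap1 turned without poly(I:C) 4 (-0.026), with the cortical mean (-0.12) or with 3 tissue means (-0.10) as covariates, and that of Crhbp with the same covariates (-0.015 and -0.031). The causes of these changes were not tested. With 3 tissue means as covariates Cck was at 0.05 and Trh at -0.20. Crh, Nmb, Vipr2, Adcyap1 and Trh lie under the filter on dim rows and have no value with it, and each member has 1 row, so no other row could be tried.

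The number of all rows past the threshold, 6 higher and 7 lower, was 18 and 20 after quantile normalization, 9 and 11 with the filter on dim rows, 0 and 1 with a trended robust prior, and 63 and 77 with array weights. It was 0 and 0 with all 35556 rows tested, with the replicate block, with the cortical mean or 3 tissue means as covariates, and without both control 4 and control 6. An unadjusted limma p under 0.05 was reached by 4658 of the 35556 rows in the first of these settings. In the others it was reached by 1768 to 2801 of 21218 rows. With 1 array left out it ran from 0 to 46 higher and from 0 to 38 lower. The replicate block changed no member's call, with Trh at -0.38 (limma adjusted p = 0.128).

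Of the pairs of members, 2 passed without both control 4 and control 6, and 0 to 2 with 1 array left out. For Cck with Trh, r was -0.76 within controls and -0.89 to -0.79 with 1 array left out. Of the relations with marker lists, 6 passed by Spearman rho, all of them of Cck or Trh, and 3 to 5 with 1 array left out. Trh with the oligodendrocyte mean at 0.38 within poly(I:C) arrays and 0.72 within controls.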

Other observations

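Cartpt and the mean of 9 medium spiny neuron genes had r = -0.891 within the 6 poly(I:C) arrays (exact permutation p = 0.0208, adjusted p = 0.200 over 42 relations) and r = 0.685 within the 6 control arrays (exact permutation p = 0.132, adjusted p = 0.504). Cartpt and the mean of 10 septal and diencephalic genes had r = 0.912 within the poly(I:C) arrays (exact permutation p = 0.0333, adjusted p = 0.200) and -0.579 within the control arrays (exact permutation p = 0.237, adjusted p = 0.669). Neither relation passed after adjustment, which 1 relation alone cannot do with 6 arrays, and the difference between the groups was not tested. The gene most like Trh, Gpr101, differed by -0.14 between the groups (limma adjusted p = 0.698), and Chrm3, the gene most like Cck, by 0.11 (limma adjusted p = 0.720).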
